A study of Mus musculus with 2 samples.

Results

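Monocytes with little macrophage differentiation were taken from single cells of injured mouse spinal cord by a rule on UMI counts (UMIs are molecular tags, so that each counts 1 captured mRNA). A barcode counted as a member if it held at least 8 UMIs of the monocyte genes Plac8, Ly6c2 and Ccr2 together, at least 10 of Lyz2 and at least 1 of Csf1r. It also had to hold under 10 UMIs of the macrophage genes Gpnmb, Ms4a7, F7 and Atp6v0d2, under 5 of the microglial genes P2ry12, Tmem119, Gpr34 and Siglech, under 3 of the border macrophage genes Lyve1, Cd163, Mgl2 and Fcna, and under 3 of the proliferation genes Mki67 and Top2a. This gave 120 members among 5145 kept barcodes, 65 of 2975 in the HDAC3i library and 55 of 2170 in the vehicle library. Levels of these rule genes are a description of the choice and not a result.

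The study sequenced 1 library of mouse spinal cord treated with an HDAC3 inhibitor (HDAC3i) and 1 library of cord treated with vehicle, both taken 5 days after injury. HDAC3 is a histone deacetylase that works in corepressor complexes. The compound, its dose, the strain, sex and age of the mice and the number of animals behind each library are not given in the labels, and both titles carry the same date. With 1 library per group there was no replicate and no test could be made, so every comparison is between these libraries and not between conditions, and every 95% interval covers counting error only.

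Values in pairs are in the order HDAC3i, vehicle, and ratios are HDAC3i over vehicle. Levels are in CPM, the UMIs of a gene summed over the members of a library and scaled to 1000000 UMIs of those members. The libraries held 38957752 and 29726813 UMIs. The members held 736234 and 714613 UMIs, with medians of 9347 and 12793 per member, and a gene at 0 UMIs could hold up to 3 of them, which is 4.07 and 4.20 CPM. Because the rule counts UMIs, the deeper vehicle members could meet it more easily. Between the libraries 10 barcodes were shared, 4 of them kept and 0 of them members.

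Blood monocytes of the mouse are of 2 main kinds. Classical monocytes carry much Ly6c2 and the chemokine receptor Ccr2, which lets them leave the bone marrow and enter injured tissue, where they turn into macrophages. Patrolling monocytes carry little of either, depend on the nuclear receptor Nr4a1, crawl along the inside of vessels and express Ear2, Treml4 and Ace. Monocyte progenitors in the marrow make primary granule proteins such as neutrophil elastase (Elane), myeloperoxidase (Mpo), proteinase 3 (Prtn3) and cathepsin G (Ctsg), and lose these mRNAs as they mature.

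The stretches of 250 bases just before the annotated start of Ly6c2, Prtn3, Ear2 and Treml4 are shown because these genes mark the 3 states compared below, classical, progenitor-like and patrolling. They are from RefSeq on GRCm38.p6, the patch of the mm10 assembly named in the submitters' processing notes, 5′ to 3′ on the gene's strand. Ly6c2 is read at the first of 2 listed starts, chr15:75111972-75112221 on the minus strand. Prtn3 lies at chr10:79879417-79879666, Ear2 at chr14:44102404-44102653 and Treml4 at chr17:48264045-48264294, each on the plus strand. Capitals mark the letters GAGGAAGT, a site form bound by PU.1, the factor that myeloid cells need to form.
Ly6c2: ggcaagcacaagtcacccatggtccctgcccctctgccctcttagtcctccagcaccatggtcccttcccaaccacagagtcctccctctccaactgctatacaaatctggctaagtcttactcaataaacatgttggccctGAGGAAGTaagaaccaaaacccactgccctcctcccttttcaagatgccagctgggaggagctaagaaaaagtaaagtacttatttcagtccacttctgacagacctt
Prtn3: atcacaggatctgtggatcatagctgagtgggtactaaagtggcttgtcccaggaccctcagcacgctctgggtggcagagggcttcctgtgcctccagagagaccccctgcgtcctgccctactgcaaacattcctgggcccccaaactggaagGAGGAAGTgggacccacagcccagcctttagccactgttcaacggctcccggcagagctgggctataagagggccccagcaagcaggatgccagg
Ear2: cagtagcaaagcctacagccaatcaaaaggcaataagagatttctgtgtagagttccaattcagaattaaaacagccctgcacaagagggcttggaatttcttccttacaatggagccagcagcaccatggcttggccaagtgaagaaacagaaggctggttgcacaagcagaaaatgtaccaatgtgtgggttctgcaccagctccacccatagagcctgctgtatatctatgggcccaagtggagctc
Treml4: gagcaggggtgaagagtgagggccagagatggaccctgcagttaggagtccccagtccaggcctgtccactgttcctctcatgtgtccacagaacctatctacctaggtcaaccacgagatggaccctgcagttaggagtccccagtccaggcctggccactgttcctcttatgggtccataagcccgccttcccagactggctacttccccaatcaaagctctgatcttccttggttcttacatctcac
Searched on both strands, GAGGAAGT occurred in 802 of 32851 such stretches over all listed starts (2.44%). It lay 108 bases before the start in Ly6c2 and 95 in Prtn3, and also in Elane, 85 bases before, and Mpo, 224 bases before. It was not found in the windows of Ear2, Treml4, Ace, Ccr2, Plac8, Ctsg, Nr4a1 or F13a1. The letters AAAGGTCA, a site form bound by NR4A factors, occurred in 439 stretches (1.34%) and in none of these 12 genes. The genes and both motifs were chosen after values had been seen, and a match of letters is not a measured site.

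The data went against a single cell type. The members fell into 4 kinds, set after their values had been seen, and each result below is given with this in view. A neutrophil-gene kind of 11 and 14 members held at least 5 UMIs of Retnlg, Ly6g, Cxcr2, Camp, Ngp and Ltf, genes of neutrophil granules and receptors. A second kind of 5 and 3 members held at least 20 UMIs of myelin genes (among them Mbp, Mag, Mobp, Cnp and Mal) or of vessel genes (Cldn5, Pecam1 and Flt1). The other 49 and 38 members are called core members here. Of the core members, 23 and 32 had more UMIs of Ly6c2 and Ccr2 than of Ear2, Treml4 and Ace, and are called Ly6c2/Ccr2 members. In 26 and 6 the Ear2, Treml4 and Ace sum was equal or higher, and these are called Ear2/Treml4/Ace members.

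**Figure D1:**
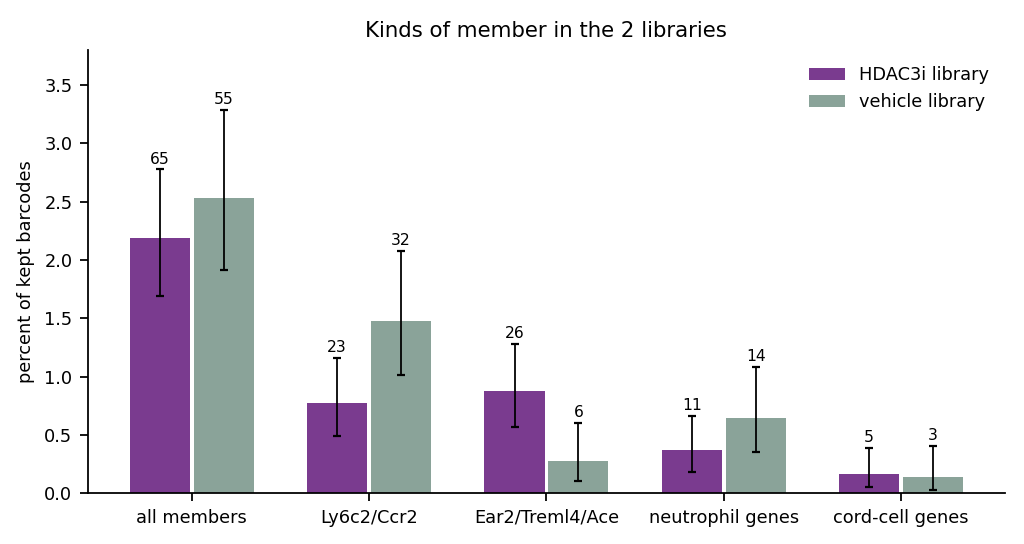
Bars give the percent of kept barcodes (vertical axis) that were members of each kind in the HDAC3i and the vehicle library, with the number of members above and 95% Clopper-Pearson intervals as whiskers, for counting error only. The core members divide differently in the libraries, 23 and 32 Ly6c2/Ccr2 members against 26 and 6 Ear2/Treml4/Ace members.

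The neutrophil genes were all or nothing among the members. Their 6-gene sum ran from 182 to 1262 UMIs in the 11 HDAC3i members and from 203 to 1889 in 13 of the 14 vehicle members, with 1 vehicle member at 9. It was at most 1 and 2 UMIs in every other member. The calprotectin genes S100a8 and S100a9, which the definition did not use, summed to 1167 to 4212 UMIs in those 11 and to 1494 to 8285 in those 13, against at most 32 and 17 UMIs in all other members, the vehicle member at 9 among them. Csf1r, the receptor that monocytes need, was at 1 or 2 UMIs in 6 of the 11 and 12 of the 13, and Ccr2 was at 0 in 9 and 12 of them. Barcodes with the same genes lay just outside the Csf1r threshold of the rule: 38 and 80 barcodes met every other condition with 0 Csf1r UMIs, and 35 and 76 of those held at least 100 UMIs of the 6 neutrophil genes. In 6 HDAC3i members and 0 vehicle members, at least 100 neutrophil UMIs stood beside at least 5 UMIs of Ear2, Treml4 and Ace. Scrublet, a doublet caller, marked 21 (0.706%) and 6 (0.276%) kept barcodes, 1 and 0 of them members.

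**Figure D2:**
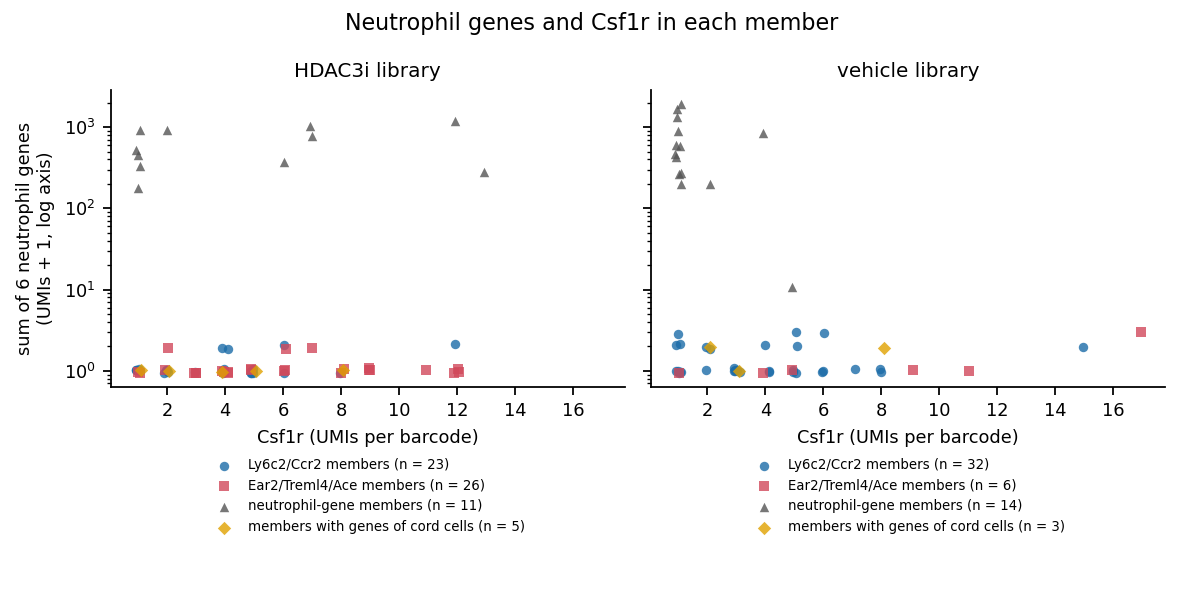
Each point is 1 member, placed by its Csf1r UMIs (horizontal axis, slightly jittered) and the sum of Retnlg, Ly6g, Cxcr2, Camp, Ngp and Ltf (vertical log axis, UMIs + 1), with 1 panel per library and 1 symbol per kind. The neutrophil-gene members sit between 182 and 1889 UMIs apart from 1 vehicle member at 9, all other members sit at 2 or below, and most vehicle members of this kind hold 1 Csf1r UMI.

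Among all members the 14 genes of the neutrophil list summed to 55397 and 92850 CPM, and among core members to 312 and 423 CPM. The oligodendrocyte list summed to 1475 and 263 CPM in all members and to 310 and 251 CPM in core members, and the endothelial list to 1246 and 669 CPM against 79.2 and 29.3 CPM. The haemoglobin and red cell list summed to 6021 and 9072 CPM in all members and to 36.4 and 16.7 CPM in core members. Among the members with myelin or vessel genes, 1 barcode of each library held 99.98% and 100% of the UMIs of the red cell list. For the oligodendrocyte list the top barcode held 89.8% and 76.9%, and for the endothelial list 56.9% and 60.7%. In core members all 12 genes of the T and NK cell list were at 0 UMIs in the HDAC3i library and 11 in the vehicle library, and all 7 mast and basophil genes were at 0 in both. Other lists were not absent there. The dendritic cell list summed to 351 and 314 CPM, with 3 of its 15 genes at 20 UMIs or more. The microglia list summed to 3420 and 3274 CPM, with 2 of its 12 genes at 20 UMIs or more. The border macrophage list summed to 17.1 and 87.9 CPM in core members and the B lineage list to 64.2 and 140 CPM, each with 1 gene of at least 20 UMIs, lower in the HDAC3i library. Neutrophil, myelin and vessel transcripts therefore move with any pooled value, and their part in the pooled differences was not tested beyond the core values given beside them.

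The rule genes were shared out differently in the kinds, which had themselves been cut on Ly6c2 and Ccr2. In Ly6c2/Ccr2 members Plac8 gave 66.5% and 59.7% of the UMIs of the 3 monocyte genes, with Ly6c2 at a median of 7 (0 to 56) and 24.5 (0 to 63) UMIs and Ccr2 at a median of 5 (0 to 18) and 8.5 (1 to 18). In Ear2/Treml4/Ace members Plac8 gave 96.8% and 96.5%, Ly6c2 was at 0 in 21 of 26 and 3 of 6, and Ccr2 at 0 in 20 of 26 and 6 of 6. Plac8, a small cysteine-rich protein of myeloid cells, was thus nearly all of what the rule counted in the second kind. This follows in part from the cut, which put cells with few UMIs of Ly6c2 and Ccr2 there, and is a description. Just inside the threshold of 8, 10 and 7 members held 8 to 10 UMIs of the 3 genes, and just outside it 8 and 3 barcodes held 5 to 7 with all other conditions met. Exactly 1 Csf1r UMI was found in 12 and 20 members.

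The members made up 2.18% (1.69 to 2.78) of kept barcodes in the HDAC3i library and 2.53% (1.91 to 3.29) in the vehicle library, a ratio of 0.862 (0.593 to 1.26) whose interval includes 1. Core members alone gave a ratio of 0.941 (0.603 to 1.48). Set against the macrophages of the same libraries, the members of all kinds were a smaller share in the HDAC3i library. Of the members, the cells that met both the monocyte and the macrophage threshold (52 and 18) and the Gpnmb macrophages (401 and 214) together, members were 12.5% (65 of 518) and 19.2% (55 of 287), a ratio of 0.655 (0.450 to 0.955). That ratio counts the 11 and 14 neutrophil-gene members and the 5 and 3 members with myelin or vessel genes. Its value in core members alone is not given here, so the difference is not shown for them. Gpnmb macrophages were 13.5% and 9.86% of kept barcodes, and a share cannot tell fewer monocytes from more macrophages.

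The 2 kinds of core member were split differently between the libraries. Ly6c2/Ccr2 members were 0.773% of kept barcodes in the HDAC3i library and 1.47% in the vehicle library, a ratio of 0.524 (0.293 to 0.924). Ear2/Treml4/Ace members were 0.874% and 0.276%, a ratio of 3.16 (1.27 to 9.39). Within the core members the second kind made up 53.1% (38.3 to 67.5) of the HDAC3i library and 15.8% (6.02 to 31.3) of the vehicle library.

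The split was also seen at equal depth. With every core member thinned to 3000 UMIs, none being shallower, Ear2, Treml4 and Ace outnumbered Ly6c2 and Ccr2 in 23 and 6 members, were outnumbered in 23 and 31, and were equal in 3 and 1. Only 3 and 1 core members had sums within 2 UMIs of each other. Leaving the rule aside, 36 (1.21%) and 12 (0.553%) of all kept barcodes held at least 3 UMIs of Ear2 and Treml4 and at least 1 of Csf1r, a ratio of 2.19 (1.11 to 4.62), and 27 and 11 of these were members. At 5 UMIs the counts were 25 and 8, a ratio of 2.28 (0.997 to 5.85). The difference rests on 6 vehicle cells, and its spread between animals is not known.

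**Figure D3:**
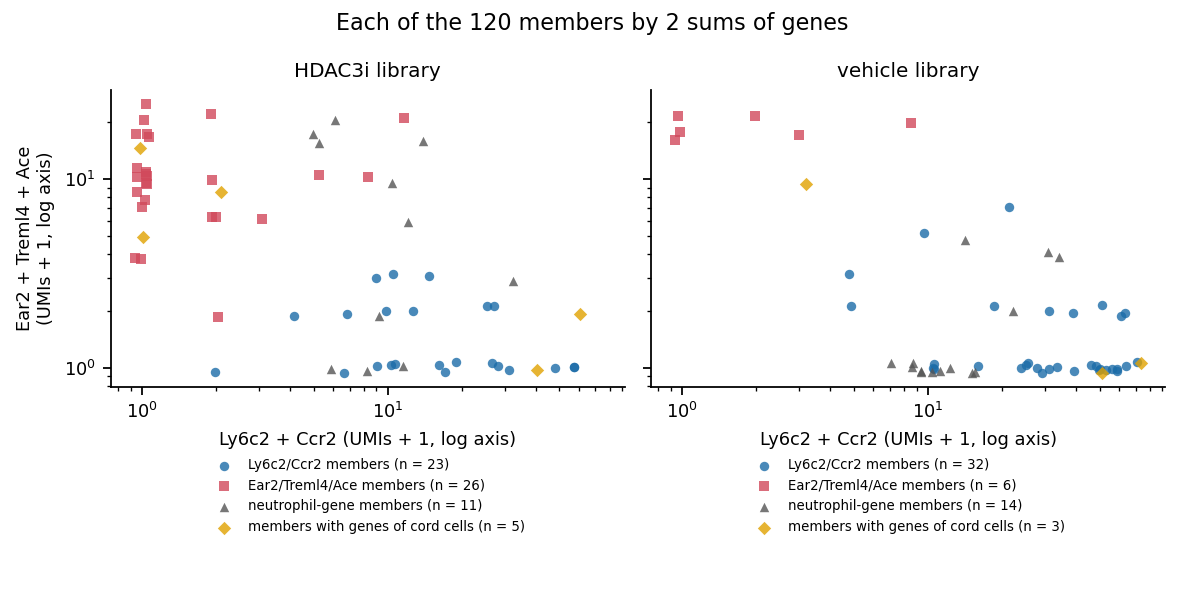
Each point is 1 of the 120 members, placed by its UMIs of Ly6c2 + Ccr2 (horizontal log axis, UMIs + 1) and of Ear2 + Treml4 + Ace (vertical log axis, UMIs + 1), slightly jittered, with 1 panel per library and 1 symbol per kind. The 26 Ear2/Treml4/Ace members of the HDAC3i library run along the left side, where the vehicle library has 6, and most Ly6c2/Ccr2 members lie along the bottom.

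The patrolling genes were read first as the share of members with at least 1 UMI of Ear2, Treml4 and Ace. It was 72.3% (47 of 65) and 38.2% (21 of 55), a ratio of 1.89 (1.11 to 3.34). Thinned to 3000 UMIs it was 38 and 14 members, a ratio of 2.30 (1.22 to 4.59). The same share was 13.3% and 15.4% in endothelial cells (median 9329 and 8693 UMIs) and 13.5% and 12.6% in Gpnmb macrophages (median 23925 and 27897 UMIs). In endothelial cells that signal was Ace, the angiotensin-converting enzyme that endothelium makes itself: Ear2 and Treml4 were at 0 of 502 and 0 of 337 of those cells, which allows shares of up to 0.598% and 0.890%.

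Ear2, an eosinophil-associated ribonuclease (chromosome 14, 44102654 to 44103534, GENCODE M21 on mm10), was at 163 and 64.4 CPM over all members, a ratio of 2.53 (1.79 to 3.64). It has near-identical copies in the genome, so its level is uncertain. Treml4, a receptor of the TREM family (chromosome 17, 48264295 to 48275360), was at 164 and 58.8 CPM, a ratio of 2.80 (1.95 to 4.07). Single vehicle members held 21.7% of the Ear2 and 23.8% of the Treml4 UMIs there. Ace (chromosome 11, 105967945 to 105989964) was at 205 and 78.4 CPM, a ratio of 2.62 (1.91 to 3.62). In core members the ratios were 2.21 for Ear2, 2.57 for Treml4 and 2.22 for Ace. Within the Ear2/Treml4/Ace members the order was turned round: Ear2 was at 372 and 577 CPM, a ratio of 0.645 (0.427 to 0.994), Treml4 at 381 and 492 CPM, 0.775 (0.502 to 1.23), and Ace at 507 and 730 CPM, 0.695 (0.484 to 1.01). These 3 genes define the kind, so values within it do not separate the number of cells from the level per cell.

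In single cells the ranges overlapped. Ear2 ran from 0 to 12 UMIs with a median of 2 in the 26 HDAC3i cells of this kind, and from 2 to 10 with a median of 5 in the 6 vehicle cells. For Ace the medians were 3 (0 to 19) and 8 (3 to 10) UMIs, and for Treml4 3 (0 to 10) and 5 (0 to 10). The vehicle cells were somewhat deeper, at a median of 8871.5 against 7729 UMIs.

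Other patrolling genes, which did not define the kinds, followed the same layout. Nr4a1 (chromosome 15, 101254269 to 101274795) was found in all 26 and all 6 Ear2/Treml4/Ace members and in 10 of 23 and 15 of 32 Ly6c2/Ccr2 members. It stood at 516 and 662 CPM in the first kind against 83.3 and 100 CPM in the second, 6.20 and 6.60 times as high. Itgal, the integrin chain of LFA-1 that holds leukocytes to endothelium, was 10.6 and 8.84 times as high, at 758 and 1035 CPM against 71.4 and 117 CPM. Cd300e, a receptor of the CD300 family, and the lipid carrier Fabp4 were at 0 UMIs in the Ly6c2/Ccr2 members of both libraries, and at 242 and 543 CPM and 246 and 238 CPM in the others. Cx3cr1, the fractalkine receptor often used for this cell type, was low at 17.1 and 18.8 CPM in core members, from 8 and 9 UMIs.

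Counted as a list, 14 of the 15 patrolling genes had at least 20 UMIs in all members; 9 were at least 1.5-fold higher and 1 lower in the HDAC3i library, with a median log2 ratio of 0.96. Over all 6064 genes with at least 20 UMIs 17.5% were that much higher and 9.71% lower, and the median over genes with at least 50 UMIs was 0.06. In core members 11 of 13 were higher and 1 lower (12.2% and 12.4% of all genes), with a median of 1.07. Eno3, the muscle form of enolase, had the highest core ratio of the list, 5.37 (3.31 to 9.14), at 225 and 41.9 CPM. Fabp4 followed at 3.87 (2.12 to 7.55), with 71.4% of its vehicle UMIs in 1 cell. Pglyrp1, a peptidoglycan binding protein, was at 3.03 (1.97 to 4.79), with 31.0% of its vehicle UMIs in 1 cell. Apobec3, a cytidine deaminase that restricts viruses, was the member on the other side, at 0.369 (0.180 to 0.713). Within the Ear2/Treml4/Ace members 0 of 12 were higher and 4 lower (18.3% and 17.5% of all genes), with a median of -0.41, and within the Ly6c2/Ccr2 members 0 of 5 were higher and 2 lower (12.3% and 14% of all genes), with a median of -0.43.

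**Figure D4:**
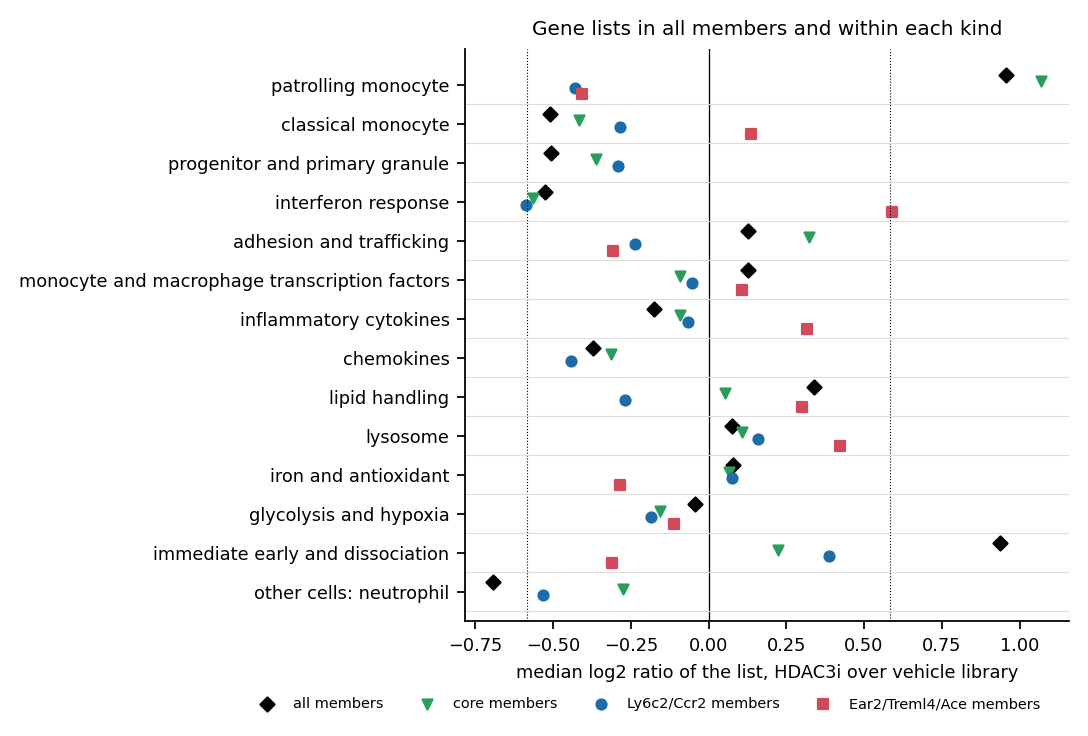
Each symbol is the median log2 ratio of 1 gene list, HDAC3i over vehicle library (horizontal axis), in all members, in core members and within each kind of core member, for lists with at least 4 genes of at least 20 UMIs. Dotted lines mark 1.5-fold. The patrolling list lies at 0.96 and 1.07 in the pooled sets and at -0.43 and -0.41 within the kinds, while the interferon list lies at -0.59 in Ly6c2/Ccr2 members and at 0.59 in Ear2/Treml4/Ace members.

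Some genes differed between the kinds in the same direction in both libraries. Of 1151 genes with at least 50 UMIs in each library, 114 (9.9%) were at least 1.5-fold higher in Ear2/Treml4/Ace members in both libraries and 126 (10.9%) in Ly6c2/Ccr2 members. The 1151 include genes that define the kinds, such as Ly6c2, Ccr2 and Ace. The genes named next do not define them. On the first side, after Itgal and Nr4a1, stood Gngt2, a G protein gamma chain, at 2191 and 2511 CPM against 428 and 315 CPM. The kinase Stk10, at 363 and 373 CPM against 63.4 and 78.8 CPM, and Pla2g7, the lipoprotein-associated phospholipase, at 591 and 814 CPM against 131 and 122 CPM, were on that side too. Hmox1 had a large ratio in the vehicle library, but 1 vehicle cell held 92.0% of its core UMIs.

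Genes on the Ly6c2/Ccr2 side are given next. F13a1, the coagulation factor XIII A chain, was at 400 and 702 CPM against 9.30 CPM (2 UMIs) and 0 UMIs in the other kind. Ccr1, a receptor for inflammatory chemokines, was at 210 and 547 CPM against 14.0 CPM (3 UMIs) and 0. Fibronectin (Fn1) was at 916 and 915 CPM against 79.1 and 17 CPM, and thrombospondin 1 (Thbs1) at 1499 and 1801 CPM against 302 and 84.8 CPM. Chil3, the chitinase-like protein Ym1 of young classical monocytes, was at 2549 and 3422 CPM against 563 and 136 CPM. The proteoglycan Vcan was at 103 and 146 CPM against 0 UMIs in both libraries. The contrast of kinds is a description, since cells were sorted into them by their own counts.

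Progenitor genes were rare. Elane was found in 1 and 6 members (2 and 10 UMIs), Mpo in 0 and 1 (0 and 1 UMI) and Ctsg in 2 and 2 (5 and 13 UMIs). Prtn3 (chromosome 10, 79874476 to 79883174) was the only one with a measurable sum, at 34 and 116 CPM from 25 and 83 UMIs in 11 and 20 members. Its ratio was 0.292 (0.179 to 0.462) in all members, where 1 HDAC3i member held 24.0% of its UMIs, and 0.210 (0.109 to 0.378) in core members. Within the Ly6c2/Ccr2 members, where 7 of 23 and 18 of 32 held a UMI and no cell held more than 11, Prtn3 was at 51.5 and 162 CPM, a ratio of 0.317 (0.161 to 0.580). Of the Ear2/Treml4/Ace members 1 of 26 and 0 of 6 held a Prtn3 UMI, and of the neutrophil-gene members 0 of 11 and 0 of 14. A Prtn3 UMI was also found in 61 of 401 (15.2%) and 24 of 214 (11.2%) Gpnmb macrophages, which were deeper. Among all members the shares were 16.9% and 36.4%. Thinned to 3000 UMIs they were 9.23% and 20% of members and 2.99% and 0.935% of Gpnmb macrophages.

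At least 3 UMIs of Elane, Mpo, Prtn3 and Ctsg were found in 5 of 65 members (7.69%) and 11 of 55 (20%), a ratio of 0.385 (0.105 to 1.20) whose interval includes 1. In core members they were 3 and 9, all of them Ly6c2/Ccr2 members. Thinned to 3000 UMIs only 0 and 3 members passed, so no difference was detectable at this depth. The same count was 6 of 401 (1.5%) and 1 of 214 (0.467%) in Gpnmb macrophages, which were deeper, and 0 of 502 and 0 of 337 in endothelial cells. Of the 15 genes of the progenitor and primary granule list 7 were measured in all members, 0 higher and 3 lower (17.5% and 9.71% of all genes), with a median of -0.51. Ms4a3, a gene of granulocyte and monocyte progenitors, was at 0 UMIs in core members of both libraries.

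The classical genes were lower in the HDAC3i library when members were pooled. Of 25 listed genes 24 were measured, with 1 higher and 11 lower in all members (median -0.51), against 17.5% and 9.71% of all genes. In core members 1 was higher and 11 lower (median -0.42), against 12.2% and 12.4%. Within Ly6c2/Ccr2 members 0 of 23 were higher and 4 lower, with a median of -0.28, and the count lower is near the 14% of all genes. Ly6c2 itself was at 1134 and 1970 CPM there, a ratio of 0.575 (0.501 to 0.659), while Ccr2 was at 595 and 650 CPM, 0.915 (0.745 to 1.12). Both are rule genes, and Ly6c2 has near-identical copies. Ly6c2 was at 0 UMIs in 4 of the 23 and 3 of the 32 members of this kind. Among those 4 were the 3 HDAC3i members with 3 to 5 UMIs of the macrophage genes. The UMIs of such cells enter every pooled ratio of this kind, and their part in these ratios was not tested. F13a1 had a ratio of 0.570 (0.450 to 0.717) and Chil3 of 0.745 (0.678 to 0.818). For Chil3 the per-cell medians lay the other way, at 33.9 and 21.2 UMIs per 10000. The glutathione enzymes Gsr and Mgst1 were also among the 4, at 0.645 (0.485 to 0.849) and 0.665 (0.531 to 0.829). Fn1 at 1.001 (0.847 to 1.18) and S100a4 at 1.05 (0.961 to 1.15) had intervals that include 1.

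Among genes with at least 100 UMIs and 50 CPM, Ccr1 had the lowest ratio in all members, 0.248 (0.194 to 0.315), and also in core members once the cell with the most UMIs was left out in each library. In Ly6c2/Ccr2 members its UMIs ran from 0 to 7 with a median of 2 over 23 HDAC3i cells and from 0 to 18 with a median of 6.5 over 32 vehicle cells, and 18 and 29 cells held a UMI. The ranges overlapped, and the summed ratio was 0.384 (0.279 to 0.520), or 0.362 without the top cells. Cfp (properdin, of the alternative complement pathway), at 95.1 and 210 CPM, had a ratio of 0.453 (0.276 to 0.718) in the same members. Among the 1793 genes with at least 50 UMIs in Ly6c2/Ccr2 members 97 (5.41%) were at least 1.5-fold higher and 130 (7.25%) lower, so Ccr1, F13a1 and Cfp lie among the 7.25%.

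Interferon-responsive genes were lower in the Ly6c2/Ccr2 members of the HDAC3i library. Of 25 listed genes 18 were measured there, 0 higher and 9 lower, with a median of -0.59, against 14% of all genes with at least 20 UMIs. The DNA sensor Ifi204 was at 143 and 282 CPM, a ratio of 0.506 (0.339 to 0.741), and its relative Ifi207, taken from the ranking, at 218 and 423 CPM, 0.516 (0.374 to 0.702). Isg15, a ubiquitin-like protein, was at 87.2 and 158 CPM, 0.553 (0.325 to 0.908), with 27.3% of the HDAC3i UMIs in 1 cell. The most abundant members were closer: Ifitm3, which blocks virus entry, had a ratio of 0.880 (0.815 to 0.949) and Ifi27l2a of 0.872 (0.798 to 0.953). Summed per cell the list overlapped widely, with medians of 123 (11.6 to 228) and 134 (28.1 to 218) UMIs per 10000. In Ear2/Treml4/Ace members the list went the other way, with 6 of 10 higher, 0 lower and a median of 0.59, against 18.3% and 17.5% of all genes and from 6 vehicle cells. Whether the kinds differ in this was not tested.

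Several large ratios belonged to few cells. Spp1 (osteopontin, which macrophages of injured tissue make) was at 2593 and 155 CPM in Ly6c2/Ccr2 members, a ratio of 16.7 (12.9 to 21.9), but 1 HDAC3i cell held 61.6% of its UMIs and 1 vehicle cell 49.2%. Without these the ratio was 12.6, and it still rested on few cells. Of the 654 and 65 Spp1 UMIs, 638 and 42 lay in the 3 and 3 members with 3 to 5 UMIs of the macrophage genes. Over all members with 0 to 2 such UMIs Spp1 was at 131 and 64.3 CPM. Cd9, a tetraspanin, had a ratio of 5.61 with 58.0% in 1 HDAC3i cell, and 3.27 without the top cells. The MHC class II list had a median of 1.10 in Ly6c2/Ccr2 members, with 5 of 6 measured genes higher (12.3% of all genes). H2-Aa, H2-Ab1 and H2-Eb1 reached 20 UMIs in only 3 of 23 and 4 of 32 of those cells, and the top 4 cells held 99.8% and 99.8% of their UMIs. In Ear2/Treml4/Ace members such cells were 3 of 26 and 1 of 6. Class II genes, which present antigen to T cells, were thus high in few members of each library.

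Fth1, the ferritin heavy chain that stores iron, was spread over all cells. It was at 12466 and 5611 CPM in core members, a ratio of 2.22 (2.12 to 2.33), with 25.3% of the HDAC3i UMIs in 1 cell and a ratio of 1.80 without the top cells. Per Ly6c2/Ccr2 member the median was 70.4 and 46.2 UMIs per 10000, and per Ear2/Treml4/Ace member 66.5 and 47.1, with overlapping ranges. Of the 14 measured genes of the iron and antioxidant list 2 were higher in core members, Fth1 and Sod2, and 3 lower (12.2% and 12.4% of all genes), with a median of 0.07. The mitochondrial superoxide dismutase Sod2 had a ratio of 1.83 (1.33 to 2.54). The metallothionein Mt1 was at 152 and 377 CPM, a ratio of 0.403 (0.302 to 0.534), with 28.3% of the vehicle UMIs in 1 cell. Il1b, the inflammasome cytokine, was at 610 and 352 CPM in core members, a ratio of 1.73 (1.43 to 2.11), with 0.944 (0.717 to 1.24) in Ly6c2/Ccr2 members and 3.62 (2.14 to 6.59) in Ear2/Treml4/Ace members. The vehicle value of the latter came from 15 UMIs, 60.0% of them in 1 cell.

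Of the 23 transcription factors of the lineage 19 were measured in core members, 4 higher and 3 lower (12.2% and 12.4% of all genes), with a median of -0.09. PU.1 (Spi1) was at 681 and 567 CPM in core members, a ratio of 1.20 (1.02 to 1.42), Cebpb at 2739 and 2600 CPM, 1.05 (0.974 to 1.14), and Irf8, which steers progenitors to monocytes, at 66.3 and 94.2 CPM, 0.704 (0.431 to 1.14). The Krüppel-like factors Klf2 and Klf4 were higher, at 1.92 (1.53 to 2.43) and 1.93 (1.41 to 2.67). In Ly6c2/Ccr2 members they were at 1.22 (0.892 to 1.67) and 1.44 (0.956 to 2.18), with intervals that include 1. Hdac3, the target of the inhibitor, was at 12.2 and 11.2 CPM in all members, from 9 and 8 UMIs, a ratio of 1.09 (0.374 to 3.25), so its mRNA gives no check of the treatment here. Of the 20 genes of histone deacetylases and corepressors 10 were measured in core members, with 0 higher and 1 lower (12.2% and 12.4% of all genes).

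Fc receptors and lysosomal genes were read from their own lists. Fcgr3, the activating receptor CD16, was at 285 and 498 CPM in core members, a ratio of 0.571 (0.459 to 0.709), and at 0.622 (0.479 to 0.803) in Ly6c2/Ccr2 members, all 23 and 32 of which held a UMI. The inhibitory receptor Fcgr2b had a ratio of 0.615 (0.400 to 0.927) in the latter. Fcgr4, the receptor of patrolling monocytes, was 12.3 and 5.11 times as high in Ear2/Treml4/Ace as in Ly6c2/Ccr2 members. Its ratio was 1.64 (1.10 to 2.46) in core members and 0.959 (0.561 to 1.72) in Ear2/Treml4/Ace members. Of the 19 genes of that list 14 were measured in core members, 3 higher and 3 lower (12.2% and 12.4% of all genes), with a median of 0.26. In Ly6c2/Ccr2 members 1 of 12 was higher and 4 lower (12.3% and 14% of all genes), with a median of -0.34. In Ear2/Treml4/Ace members 2 of 10 were higher and 0 lower (18.3% and 17.5% of all genes), with a median of 0.0002.

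Of the 22 lysosomal genes 20 were measured in core members, 3 higher and 0 lower, with a median of 0.11, and the count higher is near the 12.2% of all genes. Ctsb, the protease cathepsin B, was at 1502 and 779 CPM, a ratio of 1.93 (1.70 to 2.19), found in every core member, and at 1.57 (1.32 to 1.86) and 1.34 (1.06 to 1.70) in the 2 kinds. Cd63, a tetraspanin of late endosomes, had a ratio of 8.26 (4.52 to 16.5), but 10 and 9 core members held it and 1 HDAC3i cell had 41.2% of its UMIs. Of the 18 lipid genes 15 were measured, 6 higher and 2 lower (12.2% and 12.4% of all genes), with a median of 0.05. They include the cholesterol exporter Abcg1 at 2.70 (1.43 to 5.41) and the lysosomal lipase Lipa at 1.92 (1.25 to 3.01).

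Further lists are read here against the 12.2% of genes that were higher and 12.4% lower in core members. Chemokine genes had a median of -0.31 over 6 measured, with Ccl6 at 0.948 (0.809 to 1.11). Inflammatory cytokine genes had 3 of 13 higher and 3 lower (median -0.09), adhesion genes 6 of 16 higher and 3 lower (median 0.32), and repair genes 3 of 10 higher and 3 lower (median -0.32). Glycolysis genes had 0 of 16 higher and 2 lower (median -0.16), with Gapdh at 0.985 (0.880 to 1.10). The 13 mitochondrially encoded genes had a median of -0.29, the 20 ribosomal protein genes one of 0.03 and the 6 measured S phase genes one of -0.05. The adhesion list lay on the other side within the kinds. In Ly6c2/Ccr2 members 1 of 14 was higher and 2 lower (median -0.24), against 12.3% and 14% of all genes. In Ear2/Treml4/Ace members 0 of 11 were higher and 3 lower (median -0.31), against 18.3% and 17.5%.

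Ranked over all members, the genes with the highest ratios had much of their UMIs in single barcodes. Of 3542 genes with at least 50 UMIs 437 (12.3%) were at least 1.5-fold higher and 237 (6.69%) lower. The highest 12 ratios included those of Ptgds, Egr1, Mal, Jun, Ptn, Spp1, Hspa1b, Fosb, Hspa1a, Abcb1a and Hes1. In each of them 1 HDAC3i barcode held 42.1% or more of the UMIs, from 98.6% of Ptgds to 43.3% of Ptn and 42.1% of Hes1. Leaving out the top barcode of each library moved the ratios both ways. Ptgds went from 103 to 1.66, Mal from 14.6 to 8.57, Jun from 12.7 to 5.32 and Spp1 from 8.21 to 5.82. Egr1 went from 24.8 to 34.9, Abcb1a from 5.69 to 37.9 and Hes1 from 5.59 to 8.21, where 1 vehicle barcode held 87.5%, 93.3% and 60.6% of their few vehicle UMIs. In core members Ptn was at 0 UMIs in both libraries, Ptgds had a ratio of 1.17 (0.370 to 3.78), Egr1 of 1.02 (0.306 to 3.42), Jun of 2.04 (1.17 to 3.69) and Hes1 of 3.44 (1.72 to 7.47). The immediate early and stress list, which tissue dissociation also induces, had 13 of 18 genes higher in all members (median 0.94), against 17.5% of all genes with at least 20 UMIs. In core members 4 of 17 were higher and 3 lower (median 0.22), against 12.2% and 12.4%.

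The lowest 12 ratios were those of Ccr1, Cxcr2, C1qa, Ifi211, Prtn3, Vcan, F13a1, Hmox1, Cd33, Lrg1, Ly6c2 and Serpinb1a. Cxcr2, the neutrophil chemokine receptor, was at 0 UMIs in core members of both libraries, and Lrg1 had a core ratio of 1.84 (0.554 to 6.99) against 0.412 in all members. A single vehicle barcode held 87.3% of the UMIs of Hmox1, and without the top cells its ratio was 0.874. For C1qa that share was 58.3%, and 1 HDAC3i barcode held 37.9% of the Vcan, 29.3% of the Serpinb1a and 22.2% of the Lrg1 UMIs.

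In the core members 201 of 2495 genes (8.06%) were at least 1.5-fold higher and 182 (7.29%) lower. Ranked without the top cell of each library, the 12 highest were Spp1, Cd63, Eno3, Bcl2a1d, Acp5, Pglyrp1, Treml4, Cd9, Clec4n, Cd300ld, Dusp16 and Traf1. In each of these except Eno3 a single cell held 22.2% or more of the UMIs of a library, up to 58.1% for Spp1, 51.9% for Acp5, 41.2% for Cd63 and 40.0% for Clec4n. Bcl2a1d, a survival factor of the BCL2 family, was at 315 and 103 CPM, a ratio of 3.07 (2.21 to 4.33), with 28.6% of the vehicle UMIs in 1 cell. It was 8.41 and 11.2 times as high in Ear2/Treml4/Ace as in Ly6c2/Ccr2 members, and within the kinds its ratios were 1.18 (0.787 to 1.82) and 1.57 (0.778 to 3.17). The 12 lowest included Ccr1, Ly6c2, F13a1, Cfp, C1qa, C1qb, Ifi207, Fabp5, Polr2l, Slfn5 and Mt1. A single cell held 61.3% of the vehicle UMIs of C1qa, 62.9% of the HDAC3i UMIs of C1qb and 26.8% of those of Polr2l. In Ear2/Treml4/Ace members alone 80 of 778 genes (10.3%) were higher and 85 (10.9%) lower, resting on 6 vehicle cells.

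Beside the Gpnmb macrophages of the same libraries, the core members were high in Ifitm6 and S100a4 and low in Apoe, Fabp5, Spp1 and Igf1. Ifitm6, an interferon-induced membrane protein, was at 402 and 427 CPM in core members and at 1.48 and 2.52 CPM in Gpnmb macrophages, and S100a4, a motility protein, at 2298 and 2680 against 103 and 60.9 CPM. Trem3, Ccl9, Hp, Clec4a1, Klra2, Gpr141, Filip1l, the class II genes H2-Eb1 and H2-Ab1 and the leukotriene receptor Ltb4r1 were also higher in the core members of both libraries. The class II genes were high in few cells. H2-Eb1 was found in 6 and 5 core members, with 39.1% and 37.3% of its UMIs in 1 cell. H2-Ab1 was found in 14 and 6, with 49.5% and 41.4% in 1 cell. Ifitm6 was found in 41 of 49 and 32 of 38 core members, and in both kinds.

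On the other side Igf1, the growth factor, was at 0 UMIs in core members and at 200 and 157 CPM in Gpnmb macrophages. Fabp5, a fatty acid carrier, was at 74.9 and 167 against 8145 and 6749 CPM, and the lipid carrier Apoe at 3000.4 and 2893 against 65704 and 79091 CPM. Gdf15, Syngr1, Ahnak2, Fcrls, Hpgds, Bhlhe41, Pld3 and Mfge8 were lower too. Ranked over all members instead, only Ifitm6 and Ltb4r1 were again among the first 12 above Gpnmb macrophages, and neutrophil genes such as Ly6g, Camp, Ngp and Retnlg stood in front. The rule selected on the counts of the same cells, so this contrast is a description.

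**Figure D5:**
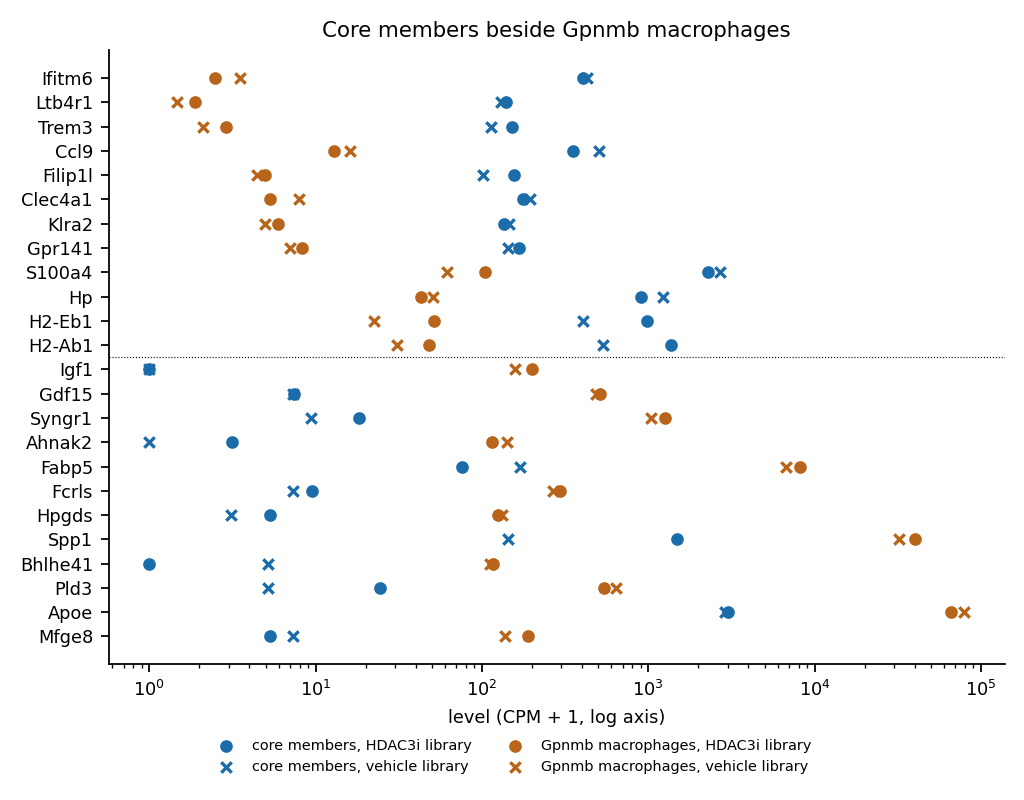
Levels of 24 genes (horizontal log axis, CPM + 1) in core members and Gpnmb macrophages of each library. The upper 12 are the genes furthest above Gpnmb macrophages in the library with the smaller difference, and the lower 12 those furthest below. In each row both libraries lie on the same side, with Igf1 at 0 in the core members of both.

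Most members carried no macrophage UMI at all. Gpnmb, Ms4a7, F7 and Atp6v0d2 summed to 0 in 49 and 44 members and to 0 to 2 in 62 and 51. They summed to 3 to 5 in 3 and 3 members and to 6 to 9 in 0 and 1, and these 7 were all Ly6c2/Ccr2 members. With 0 to 2 macrophage UMIs Apoe was at 1889 (1787 to 1995) and 1401 (1313 to 1494) CPM, and with 3 to 5 at 6951 (6274 to 7682) and 11774 (10710 to 12915) CPM. Plac8 and Ly6c2 were both at 0 UMIs in all 3 HDAC3i members with 3 to 5, where Spp1 was at 11520 (10643 to 12449) CPM. These 3 members passed on Ccr2 alone. With 0 to 2 macrophage UMIs Spp1 was at 131 (105 to 161) and 64.3 (46.5 to 86.6) CPM. Above the threshold, 1 and 0 barcodes held 10 to 12 macrophage UMIs with all other conditions met.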

How the data were processed

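Gene expression in single cells was measured with droplet libraries, 1 per group, of injured mouse spinal cord. The authors deposited raw UMI counts per gene and barcode, and per the file headers these came from Cell Ranger 3.0.2. The submitters' processing notes name Cell Ranger, Seurat and the mm10 build, and further filters are not given in the sources used here. A barcode was kept if it reached 500 genes and 1000 UMIs with no more than 15% of UMIs from mitochondrial genes. UMIs were summed over cells per library and scaled to CPM with Poisson intervals. Ratios have exact conditional binomial and shares Clopper-Pearson 95% intervals. Because cells of 1 library are not replicates, no p-value was computed, and a gene was counted as higher or lower at a ratio of 1.5 or more either way. Single genes were counted from 50 UMIs over both libraries, list genes from 20. For equal depth cells were thinned to 3000 UMIs. Doublets were called with Scrublet in scanpy 1.11.5 and left in, with an alternative that leaves them out. Python 3.11.15, numpy 2.4.6, pandas 2.3.3, scipy 1.17.1 and matplotlib 3.10.9 were used, and the fold rule was checked on simulated counts. The simulated counts were Poisson sums per library without variation between cells. They checked the arithmetic only, and do not show how the rule acts on genes whose UMIs lie in few cells. Gene coordinates are from GENCODE M21 on mm10, and promoter sequences are from RefSeq.

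The cell rule and the gene lists were chosen with earlier results of these data known. The kinds of member, the rankings within them, the motifs and the alternatives that use single kinds were chosen after values had been seen. Genes were named if they belonged to the cell rule, its progenitor or patrolling genes or were Hdac3. Also named were the 12 highest and 12 lowest ratios among genes with at least 100 UMIs and 50 CPM, leaders of each list, and the 12 genes furthest from Gpnmb macrophages on each side, with a remark on ranked genes where 1 cell held over 20% of the UMIs of a library. Other genes, among them the Fc receptor genes and Ifi207, were picked after their values were seen. Some genes that meet the naming rule are not reported here.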

Additional observations from a re-analysis of the deposited data

Results flagged for a closer look

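For 4 genes the ratio of HDAC3i to vehicle was at least 1.5-fold on opposite sides of 1 in the 2 kinds of core member, and the difference between the kinds was not tested. C1qb, a chain of complement C1q, had a ratio of 0.326 in Ly6c2/Ccr2 members (123 and 377 CPM) and of 3.97 in Ear2/Treml4/Ace members (270 and 67.9 CPM), where 1 HDAC3i cell held 96.6% of the UMIs. F10, coagulation factor X, had ratios of 0.535 (159 and 296 CPM) and 2.91 (246 and 84.8 CPM). Ms4a6b, a membrane protein of the MS4A family, had ratios of 0.574 (396 and 690 CPM) and 2.80 (428 and 153 CPM). Itgb2, the common chain of leukocyte integrins, was the reverse, at 1.61 (353 and 220 CPM) and 0.633 (730 and 1154 CPM). The vehicle values of the second kind come from 6 cells.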

How the results depend on the processing

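The 7 main results were recomputed under the alternatives, and 69 of their 81 recomputed values stayed within their interval or within 1.5 times the count. The 12 others were the progenitor share, whose ratio of 0.385 became 0 with members thinned to 3000 UMIs, and counts of genes. Against 437 genes higher and 237 lower in all members, thinning gave 84 and 65, a minimum of 200 UMIs 64 and 46, and a minimum of 20 UMIs 1061 and 589. Core members gave 201 higher, Ly6c2/Ccr2 members 97 higher and 130 lower, and Ear2/Treml4/Ace members 80 higher and 85 lower. Fewer genes or cells enter each of these except the minimum of 20 UMIs. Of 443 recomputed ratios of 31 named genes 4 crossed 1 from a value past 1.5-fold. C1qa was at 1.03 with at least 5 UMIs of Plac8, Ly6c2 and Ccr2 and at 1.14 with under 5 macrophage UMIs, against 0.289. Lrg1 was at 2.01 without the neutrophil-gene members and at 1.84 in core members, against 0.412. Of 381 recomputed list medians 5 changed sign from a value past 1.5-fold. The patrolling list was at -0.43 in Ly6c2/Ccr2 and -0.41 in Ear2/Treml4/Ace members, and the immediate early list at -0.31 in the latter. The endothelial list was at -0.14 with each cell weighted equally, and the erythroid list at 7.04 without the members that hold progenitor genes. The cause was not tested for C1qa, Lrg1 and these lists. Scaling by the median ratio, 1.04 or 0.06 on the log2 scale, did neither for any result. No paired analysis was possible because each group has 1 library. Depth limits rare genes, since 3 UMIs are 4.07 and 4.20 CPM over all members and 14.0 and 50.9 CPM in Ear2/Treml4/Ace members.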
